A study of Mus musculus with 4 samples.

Results

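The transcripts of 10 genes of cell adhesion and of epithelial to mesenchymal transition (EMT) were followed in mouse embryonic stem (ES) cells kept without leukemia inhibitory factor (LIF). The genes were 4 cadherins (Cdh1, Cdh2, Cdh3 and Cdh11), the surface protein Epcam, the splicing regulator Esrp1, the tight junction protein Ocln and the transcriptional repressors Zeb1, Zeb2 and Snai1. They were chosen by name, and every probe set with exactly 1 gene symbol that was the symbol of one of them was taken. This gave 22 probe sets for all 10 genes, of 45101 probe sets and 18193 genes on the array. Each gene was read from its brightest probe set, the one with the highest mean log2 signal, and its other probe sets were then set beside it.

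The series asked which transcripts depend on LIF. CGR8 cells, an ES cell line derived from a mouse embryo, were grown on gelatin in medium with serum replacement and measured on 4 Affymetrix arrays. In the group without LIF the medium was replaced by medium lacking the cytokine, and in the group with LIF by medium holding it at 1000 U/ml, for 2 days. Each group held 2 arrays, numbered 1 and 2 in the labels, and both carried the same line with no genetic change named. Nothing in the labels tells whether the arrays of a group are separate cultures, and p-values here cover just the spread among these arrays, which could be technical. In such bulk RNA, fewer cells of a type and less RNA per cell cannot be told apart.

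Classical cadherins join cells by binding the same cadherin on a neighbour and hold the actin cytoskeleton through catenins. E-cadherin, the product of Cdh1, is the cadherin of epithelia and of the compact colonies of ES cells, and a switch from E-cadherin to N-cadherin, the product of Cdh2, accompanies EMT in the gastrulating embryo. Zeb and Snail proteins are zinc finger repressors that bind E-box sequences and silence Cdh1 and other epithelial genes, while Esrp1 directs the epithelial splice forms of many transcripts.

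None of the 10 genes changed past the threshold in the fit by group alone. With the array number as a block 3 of the 10 did, Cdh2, Epcam and Esrp1, against 6.75% of tested genes. The labels do not tell whether the numbers pair the samples. The sizes of the 10 differences were not alike. Esrp1 and Cdh2 had the largest differences, 3.46-fold and 2.69-fold higher on average without LIF. Epcam, Zeb2 and Snai1 followed at 1.74-fold to 1.81-fold. Cdh1, Cdh3, Cdh11, Ocln and Zeb1 lay within 1.22-fold. Markers of the epithelial and of the mesenchymal state thus stood among both the larger and the smaller differences.

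In the limma fit over 14445 tested genes 0 of the 10 genes passed at an adjusted p of 0.05, against 0.145% of all tested genes. At an unadjusted p of 0.05, 2 of the 10 (Esrp1 and Epcam) were higher, against 7.16% of tested genes. Without the mean-variance trend eBayes called 0 of all tested genes, so that setting does not set the 10 apart. All 10 log2 changes, without LIF minus with LIF, were positive, against 59.4% of tested genes. That count was 8 with quantile normalization, where Cdh3 and Cdh11 turned negative, and 5 with a common median per array, where Cdh1, Cdh3, Cdh11, Ocln and Zeb1 did. The median of all tested genes was 0.09 as deposited, 0.02 with quantile normalization and -0.20 with a common median on the log2 scale. All 10 genes lay above that median as deposited, and 8 of 10 with quantile normalization. A common median moves every gene by the same amount, so it turns the sign of small changes by construction and leaves each gene's distance from the median of all genes as it was. The median over the 10 genes was 0.54, against 0.09 over all tested genes.

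The arrays without LIF both lay above the arrays with LIF for 3 of the 10 genes, Esrp1, Epcam and Snai1, against 27.3% of tested genes, and both below for 0 of the 10, against 15.2%. For 1 of the 10, Esrp1, they did so with a mean difference of at least 2-fold, against 7.36% of tested genes. With a single array left out that last count was 2 to 4, since 3 arrays overlap less easily. The share of all tested genes with an array left out is not given here, so that count is not set against 7.36%. In each fit with an array left out, 1 group holds a single array that is assumed to vary like the other group. The gene's own spread then comes from the other group's 2 arrays, and eBayes draws it toward that of all genes. Of the 10 genes 9 were higher without LIF within both numbers, against 40.1% of tested genes, and the exception was Cdh1. At least 2-fold within both numbers was 1 of the 10, Cdh2, against 3.80% of tested genes.

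**Figure D1:**
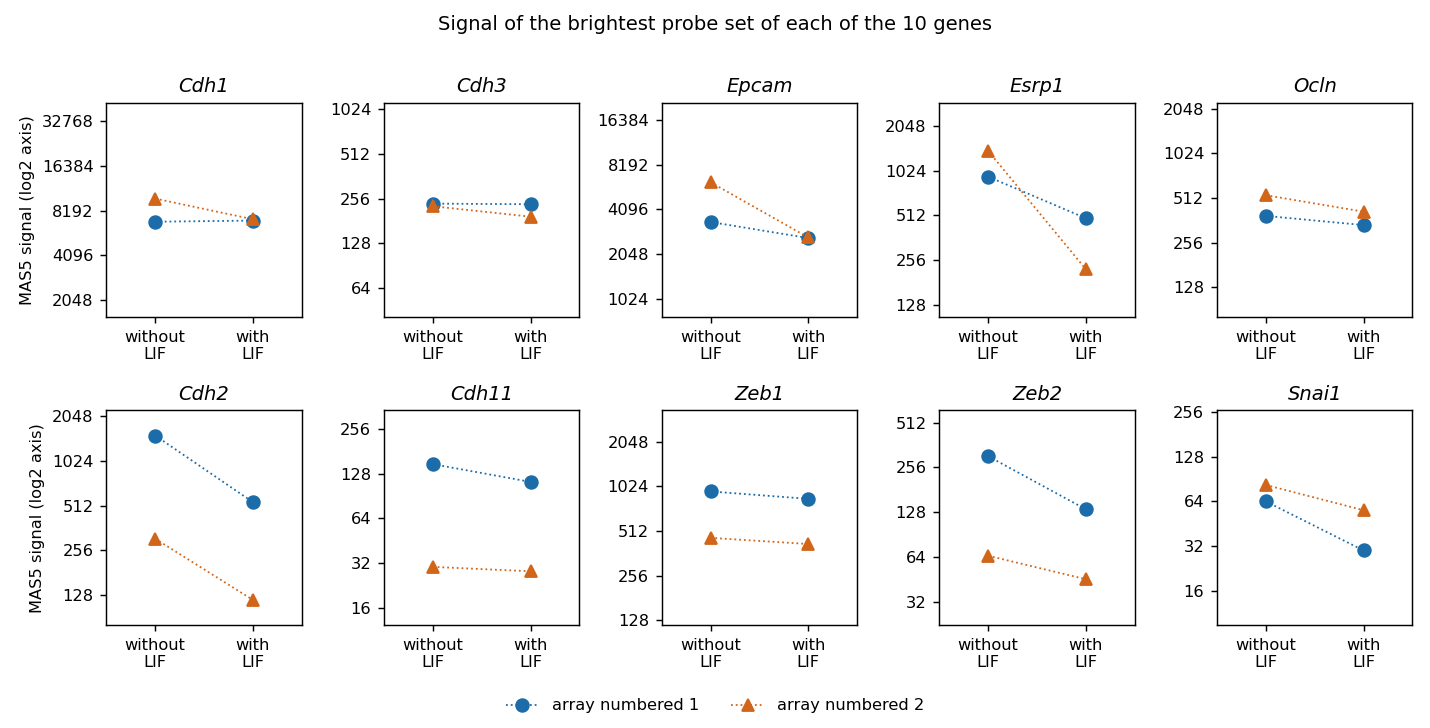
MAS5 signal (log2 axis, each panel spanning the same number of doublings) of the brightest probe set of each gene, with the arrays without LIF at the left and those with LIF at the right. Circles are arrays numbered 1 and triangles those numbered 2, and dotted lines link arrays of the same number. Esrp1 read 933 and 1391 without LIF and 490 and 222 with LIF, while the signals of Cdh2 separated more by array number than by LIF.

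The arrays held the transcripts of ES cells and of a LIF response. Pou5f1, which encodes Oct4, read 7212 and 10632 without LIF and 9035 and 8246 with LIF. Of 10 ES cell markers 0 passed and 8 had negative log2 changes, with a median of -0.27, and the groups did not overlap for 6 lower without LIF, against 15.2% of tested genes, and for 1 higher, against 27.3%. Nanog read 3553 and 5725 without LIF, against 10137 and 14229 with LIF, and Zfp42 and Tdgf1 had log2 changes of -1.38 and -1.48. The 1 higher was Lin28a, with 5179 and 6026 without LIF, against 3233 and 2873 with LIF (log2 change 0.87). Socs3, the feedback inhibitor of LIF signalling, fell by 4.16 on the log2 scale (adjusted p = 0.0046). The arrays of each group also differed by number in control signals, with 18S ribosomal RNA (3' probe set) 6.63 times as high on array 2 as on array 1 without LIF and 11.1 times with LIF. The bacterial RNA dap (3' probe set), added as a control before labelling, was 0.439 and 0.248 times as high. Of 14 primitive endoderm markers 14 were higher on array 2 in both groups, against 32.0% of tested genes. Lower there in both were 5 of 7 neuroectoderm markers and 4 of 7 fibroblast markers, against 31.7% of tested genes. Summed signals of the primitive endoderm markers were 8595 and 33717 without LIF and 6883 and 17418 with LIF on arrays 1 and 2. Those of the neuroectoderm markers were 3794 and 2871 without LIF, against 2624 and 1644 with LIF. Summed fibroblast signals were 1023 and 552 without LIF, against 695 and 418 with LIF, and the markers Lum and Lox lay below the filter. None of these markers was listed at 0.

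Cdh1, which holds ES cell colonies together, had signals of 6914 and 9898 without LIF, against 7038 and 7181 with LIF. The group without LIF therefore surrounded the tight pair with LIF. Its log2 change was 0.22 (SE 0.21, 95% interval -0.28 to 0.71, adjusted p = 0.765), with -0.03 within number 1 and 0.46 within number 2. It turned to -0.040 on leaving out array 2 without LIF.

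Cdh3, which encodes the placental cadherin (P-cadherin), read 238 and 228 without LIF, against 235 and 194 with LIF. Its groups overlapped, and the log2 change was 0.12 (SE 0.29, adjusted p = 0.912). A dim probe set of the gene, 1441255_at, read 27.3 and 35.0 without LIF, against 16.8 and 17.6 with LIF, close to the filter at a signal of 22.9. The 2 probe sets of Cdh3 did not separate the groups alike, since those of the brighter one overlapped.

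Epcam, a homophilic adhesion protein of epithelia that ES cells also carry, had signals of 3360 and 6223 without LIF, against 2618 and 2641 with LIF. Both arrays without LIF were above both with LIF, and the pair with LIF lay close together. The means were 4791 ± 2025 without LIF and 2629 ± 16.7 with LIF (SD, n = 2 each). The log2 change was 0.80 (SE 0.29, 95% interval 0.12 to 1.48, adjusted p = 0.377), 0.36 within number 1 and 1.24 within number 2. On leaving out array 2 without LIF it was 0.35, and on leaving out array 1 without LIF it was 1.24. The highest Epcam signal and the highest sum of primitive endoderm markers fell on the same array, number 2 without LIF, and their part in the result was not tested. Its other probe set, 1447899_x_at, whose ID marks a set that may read related transcripts, had 504 and 321 without LIF, against 353 and 313 with LIF, a log2 change of 0.28.

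Ocln, the tight junction protein occludin, read 387 and 534 without LIF, against 336 and 414 with LIF. The groups overlapped, with a log2 change of 0.29 (SE 0.27, adjusted p = 0.765), although the gene was higher without LIF within each number (0.20 and 0.37). On leaving out array 2 without LIF the change was 0.055. A dimmer probe set, 1440220_at, gave 206 and 172 without LIF, against 159 and 166 with LIF, and did not overlap between groups. The differences of both probe sets were within 1.22-fold.

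Epcam, Ocln and Snai1 were among the 4 genes found in the RefSeq promoter table (build GRCm38.p6), the other being Zeb2. They are shown because the Zeb and Snail repressors among the 10 genes are known to bind the E-box CACCTG. The 250 bases before an annotated start were searched for CACCTG on both strands, where the other strand reads CAGGTG, and matches are in capitals. Distances below run from the 5' base of a match to the start.
Epcam, chr17:87635729-87635978, + strand: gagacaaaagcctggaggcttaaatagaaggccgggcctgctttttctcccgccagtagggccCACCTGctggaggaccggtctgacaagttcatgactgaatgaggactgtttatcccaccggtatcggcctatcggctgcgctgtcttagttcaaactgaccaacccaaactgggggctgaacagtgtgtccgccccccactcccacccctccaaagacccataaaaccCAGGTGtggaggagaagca
Ocln, chr13:100552499-100552748, - strand: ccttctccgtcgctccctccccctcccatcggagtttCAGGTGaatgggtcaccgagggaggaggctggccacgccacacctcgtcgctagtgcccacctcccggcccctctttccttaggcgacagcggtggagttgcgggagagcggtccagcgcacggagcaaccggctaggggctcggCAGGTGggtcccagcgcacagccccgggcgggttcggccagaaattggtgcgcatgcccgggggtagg
Snai1, chr2:167537945-167538194, + strand: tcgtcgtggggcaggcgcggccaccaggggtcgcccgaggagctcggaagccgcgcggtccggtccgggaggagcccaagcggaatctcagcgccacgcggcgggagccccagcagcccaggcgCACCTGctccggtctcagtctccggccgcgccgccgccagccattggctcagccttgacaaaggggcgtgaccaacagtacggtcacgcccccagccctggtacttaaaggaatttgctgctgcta

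The Epcam sequence held 2 matches, 187 and 19 bases before the start. The Ocln sequence held 2, at 213 and 68 bases, and the window of another annotated Ocln start held 0. The Snai1 sequence held 1 match, at 126 bases, and the 4 windows of Zeb2 held 0. Among all 32851 windows of this length there, the share with at least 1 match was 17.2% and with at least 2 was 2.06%. A match is only a run of letters and was not tested for binding. The arrays do not measure it.

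Esrp1, which encodes the epithelial splicing regulatory protein, had signals of 933 and 1391 without LIF, against 490 and 222 with LIF. Both arrays without LIF lay above both with LIF, in means of 1162 ± 324 without LIF and 356 ± 190 with LIF (SD, n = 2 each). The log2 change was 1.79 (SE 0.40, 95% interval 0.84 to 2.74, unadjusted p = 0.0030, adjusted p = 0.154), larger than that of 98.1% of tested genes. Within number 1 it was 0.93 and within number 2 it was 2.65. With an array left out the log2 change stayed positive, from 1.22 lacking array 2 with LIF to 2.36 lacking array 1 with LIF. Lacking array 1 without LIF it was 2.08. Such fits leave 1 array in a group, so only the sizes of the change are given. The single probe set of Esrp1 was unlike those of Cdh2 in having no steady order by array number. It was higher on array 2 without LIF and lower on array 2 with LIF.

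**Figure D2:**
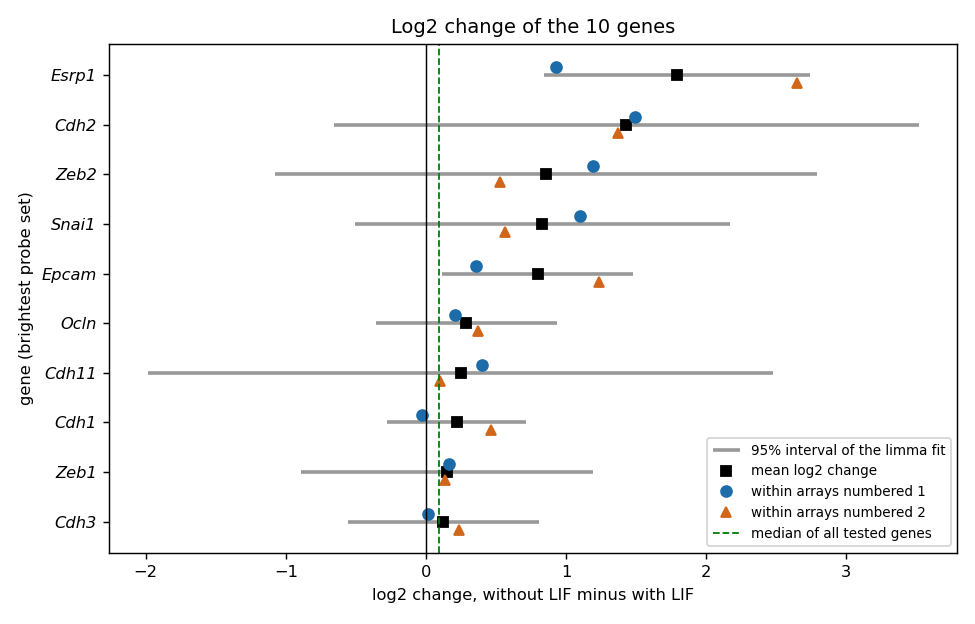
Log2 change (without LIF minus with LIF) of the brightest probe set of each gene. Squares are means with the 95% interval of the limma fit, circles and triangles are changes within the arrays numbered 1 and 2, and the dashed line is the median of all tested genes, 0.09. The changes of Cdh2 within the numbers, 1.49 and 1.37, lay close together in a wide interval of -0.66 to 3.52.

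Cdh2, the neural and mesenchymal N-cadherin, read 1521 and 307 without LIF, against 541 and 119 with LIF on arrays 1 and 2. The groups overlapped, because array 1 with LIF lay above array 2 without LIF. Within each number the array without LIF was the higher, by 1.49 for number 1 and by 1.37 for number 2 on the log2 scale. The means were 914 ± 858 without LIF and 330 ± 299 with LIF (SD, n = 2 each), and the log2 change was 1.43 (SE 0.88, adjusted p = 0.609). Lacking array 1 or 2 without LIF the change was 0.28 and 2.58, and lacking array 1 or 2 with LIF it was 2.52 and 0.34. These fits leave 1 array in a group, so only the sizes of the change are given. A dimmer probe set made from the same transcript record, 1449244_at, read 495 and 173 without LIF, against 203 and 84.9 with LIF. Its log2 change was 1.15, with 1.28 and 1.03 within the numbers.

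The log2 difference of array 2 minus array 1 for Cdh2 was -2.31 without LIF and -2.19 with LIF. The 5 of 7 neuroectoderm markers that were also lower on array 2 in both groups were Sox1, Nes, Map2, Pax6 and Zic1, and Sox1, a transcription factor of the neural plate, read 1422 and 446 without LIF, against 432 and 239 with LIF. The other two had other orders. Neurod1 was highest on array 2 without LIF, with 490 and 1258 without LIF, against 285 and 233 with LIF, and Tubb3 read 459 and 632 without LIF, against 1224 and 833 with LIF. The part of neural cells in the Cdh2 values was not tested.

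The relation of Cdh2 to Cdh1 was taken within each array, where array scaling cancels. Log2 Cdh2 minus log2 Cdh1 was -2.18 and -5.01 without LIF, against -3.70 and -5.92 with LIF, so the groups overlapped. The mean was -3.60 ± 2.00 without LIF and -4.81 ± 1.57 with LIF (SD, n = 2 each), and the difference of 1.21 gave p = 0.667 in an exact two-sided permutation test, where 0.333 is the smallest p that 2 against 2 arrays can give. Within the numbers the differences were 1.52 and 0.91. The sign turned, to -0.20, on leaving out array 1 without LIF. Offsets between probe sets make the level itself uninterpretable, and only the differences between arrays carry meaning.

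Cdh11, a cadherin of mesenchyme and bone (OB-cadherin), had signals of 149 and 30.2 without LIF, against 113 and 28.2 with LIF. Its arrays separated by number and hardly by LIF, with a log2 change of 0.25 (SE 0.94, adjusted p = 0.948). Leaving out array 2 with LIF or array 1 without LIF turned it to -0.75 and -0.90. A second and dimmer probe set, 1435120_at, read 40.4 and 38.4 without LIF, against 19.8 and 23.9 with LIF, and did not separate by number. Its groups did not overlap, unlike those of the brighter one, with a log2 change of 0.86 at low signals.

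**Figure D3:**
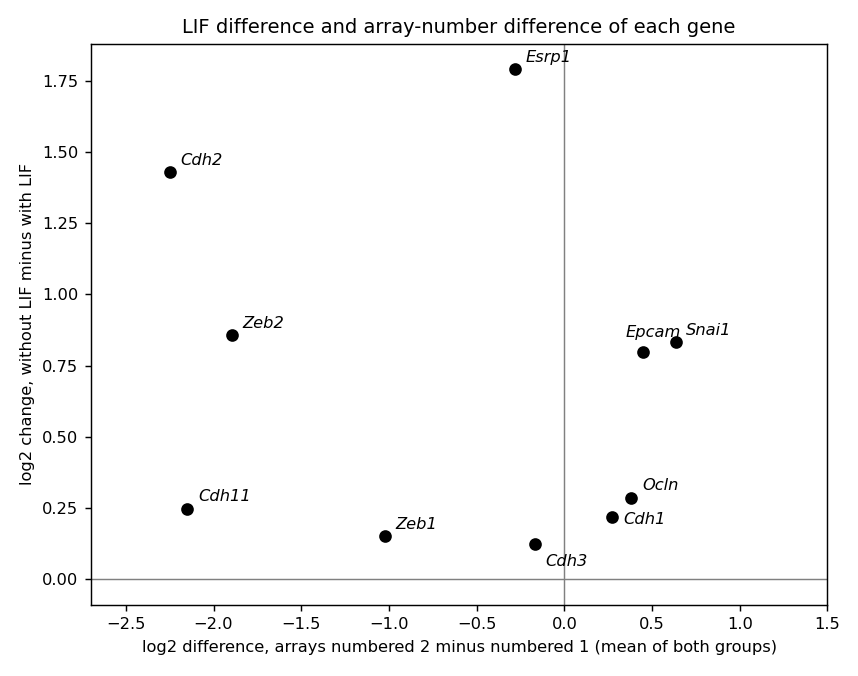
For each gene, the log2 change without LIF minus with LIF (vertical axis) against the log2 difference of arrays numbered 2 minus arrays numbered 1, averaged over both groups (horizontal axis). Cdh2, Cdh11, Zeb2 and Zeb1 lie at the left, lower on the arrays numbered 2, while Esrp1, Epcam and Snai1 lie nearer to 0 or to its right.

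Zeb1, a repressor of epithelial genes, read 945 and 460 without LIF, against 842 and 418 with LIF. The arrays of each number were nearly level between groups, and the log2 change was 0.15 (SE 0.44, 95% interval -0.89 to 1.19, adjusted p = 0.931), with 0.17 and 0.14 within the numbers. It turned to -0.35 on leaving out array 2 with LIF and to -0.37 on leaving out array 1 without LIF. The 2 other tested probe sets of Zeb1 had log2 changes of 0.10 and 0.34. One more, 1420243_at, lay below the filter at 3.6 and 8.5 without LIF, against 24.7 and 9.1 with LIF, and was not tested.

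Zeb2, the related repressor, which also acts in neural crest and neural development, read 305 and 65.1 without LIF, against 134 and 45.2 with LIF. As for Cdh2 the groups overlapped while the array without LIF was the higher within each number, by 1.19 and 0.53. The log2 change was 0.86 (SE 0.82, adjusted p = 0.765), and it turned to -0.26 on leaving out array 1 without LIF. Its 3 other tested probe sets had log2 changes of 0.95, 1.22 and 0.83. The set at 0.83, 1458941_at, differed from the rest in reading 63.9 and 85.2 without LIF, against 67.2 and 25.7 with LIF. A probe set at 0.9 to 14.2 was below the filter.

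Snai1, the Snail repressor of the gastrulating embryo, had signals of 64.0 and 82.6 without LIF, against 29.9 and 55.8 with LIF. Both arrays without LIF lay above both with LIF, at low signals. The log2 change was 0.83 (SE 0.56, 95% interval -0.50 to 2.17, adjusted p = 0.649), with 1.10 and 0.57 within the numbers. It was 0.38 lacking array 1 with LIF and 1.28 lacking array 2 with LIF. Snai1 was higher on array 2 in both groups, by 0.37 without LIF and by 0.90 with LIF, unlike Zeb1 and Zeb2. Its E-box sequence is printed above.

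The 4 genes Cdh2, Cdh11, Zeb1 and Zeb2 were at least 2-fold lower on array 2 than on array 1 in both groups, against 2.44% of tested genes. Cdh3 was the fifth of the 10 that was lower on array 2 in both groups (-0.06 without LIF and -0.28 with LIF), against 31.7% of tested genes. Epcam, Cdh1, Ocln and Snai1 were higher there in both, against 32.0% of tested genes, and the log2 differences of the first 3 with LIF were small, at 0.01, 0.03 and 0.30. For Esrp1 the sign differed between the groups.

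Of the 22 probe sets 20 passed the filter on low signals, and 7 of the 10 genes had more than 1 probe set. All 20 tested probe sets had positive log2 changes as deposited, and the 2 below the filter had negative ones, of -1.44 and -0.09. In a fit over 26405 probe sets 0 of the 20 passed the limma test, and 0 of all did. At an unadjusted p of 0.05, 2 of the 20 (the brightest of Esrp1 and of Epcam) were called, against 7.72% of tested probe sets. The groups did not overlap for 6 of the 20, all higher without LIF, against 24.5%. Probe sets of a gene share its transcripts and are not independent.

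**Figure D4:**
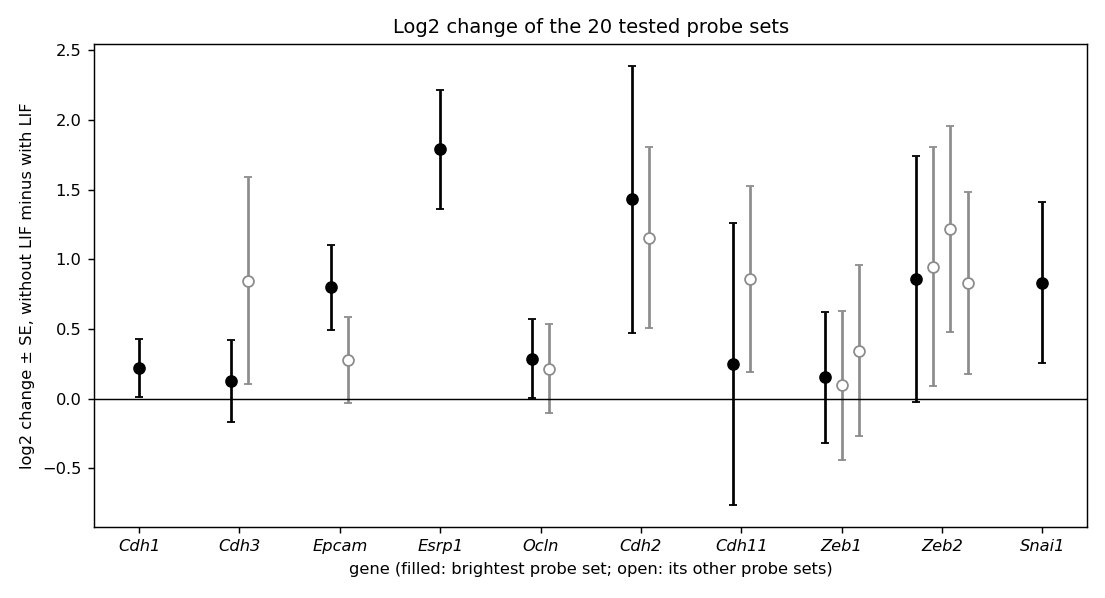
Log2 change ± SE (without LIF minus with LIF) of the 20 tested probe sets, grouped by gene. Filled circles are the brightest probe set of a gene and open circles its others. Those of Cdh2, at 1.43 and 1.15, and of Zeb2, between 0.83 and 1.22, lay within their SE of each other, and those of Epcam were 0.80 and 0.28.

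Genes that work with the 10 were taken from lists chosen by function. Of 11 tested catenins and adherens junction proteins 0 passed, and their median log2 change was 0.09 (-0.16 to 0.083 with an array left out). Jup, which encodes plakoglobin, read 426 and 335 without LIF, against 927 and 448 with LIF, and Arvcf, a catenin of the p120 family, 315 and 343 without LIF, against 454 and 493 with LIF. Vcl and Pkp4 had log2 changes of 0.33 and -0.34. For these 4 genes, 3 lower and 1 higher without LIF, no array of one group reached into the other, against 15.2% and 27.3% of tested genes. Ctnnb1, which encodes beta-catenin, had 18239 and 20386 without LIF, against 18459 and 17845 with LIF.

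Among 10 tested cadherins outside the 10 genes 0 passed, with a median of 0.58 (0.29 with a common median). It was 0.10 lacking array 1 without LIF and 0.97 lacking array 2 without LIF. Cdh10, a cadherin of brain, read 287 and 107 without LIF, against 81.5 and 25.9 with LIF (log2 change 1.93, SE 0.71, adjusted p = 0.383). Cdh9 (1.44), Cdh15, a cadherin of muscle (0.87), and Cdh22 (0.66) were likewise higher on both arrays without LIF and did not pass. Another 6 cadherins with a probe set lay below the filter.

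The 13 other tested EMT regulators held 0 calls and had a median of 0.15 (-0.14 with a common median). That median was -0.034 and 0.35 lacking array 1 or 2 without LIF, and 0.47 and -0.11 lacking array 1 or 2 with LIF. Ets1 read 215 and 236 without LIF, against 109 and 97.7 with LIF (log2 change 1.13, adjusted p = 0.260), and the receptor gene Tgfbr2 92 and 125 without LIF, against 51.6 and 72.6 with LIF. Twist1 and Tgfb1 had log2 changes of 0.61 and -0.43. Snai2, the paralogue of Snai1, read 54.3 and 232 without LIF, against 121 and 100 with LIF.

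Of 14 tested regulators of the epithelial state 8 had positive and 6 had negative log2 changes. The groups did not overlap for 4 higher without LIF, against 27.3% of tested genes, and for 3 lower, against 15.2%. Only 1 of the 14 passed, lower without LIF, against 0.145% of tested genes passing in either direction. It was Klf4, also a factor of naive ES cells and a target of LIF, with 373 and 559 without LIF, against 5333 and 7999 with LIF (log2 change -3.84, adjusted p = 0.010). The grainyhead-like factors are named here after their values were seen. Grhl2, an activator of Cdh1 in epithelia, read 709 and 1437 without LIF, against 408 and 574 with LIF (log2 change 1.06, adjusted p = 0.352). Grhl3 read 115 and 246 without LIF, against 586 and 574 with LIF (-1.79, adjusted p = 0.141). Grhl1 read 184 and 208 without LIF, against 195 and 179 with LIF (0.07), and its groups overlapped. Grhl2 and Grhl3 thus had opposite signs, Grhl1 was nearly level, and no grainyhead-like factor passed.

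The 30 tested epithelial junction, keratin and surface genes held 0 calls, and 23 had positive log2 changes, against 59.4% of tested genes, with a median of 0.30 (0.01 with a common median, and 0.53 lacking array 1 without LIF). Krt18, a keratin of simple epithelia, read 523 and 1371 without LIF, against 265 and 377 with LIF (log2 change 1.42, adjusted p = 0.316). Lsr and Marveld3, proteins of tight junctions, had log2 changes of 0.79 and 1.22. The desmosomal cadherin Dsg2 read 753 and 1132 without LIF, against 1850 and 2370 with LIF (-1.18, adjusted p = 0.144). The groups did not overlap for 11 genes higher without LIF, against 27.3% of tested genes, and for 2 lower, against 15.2%.

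The 19 tested mesenchymal genes also held 0 calls, with a median of 0.33 (0.04 with a common median). Lacking array 1 or 2 without LIF it was 0.20 and 0.97, and lacking array 1 or 2 with LIF it was 0.93 and 0.090. Cd44, a hyaluronan receptor, read 95.1 and 88.1 without LIF, against 28.0 and 24.9 with LIF (log2 change 1.79, adjusted p = 0.272). The matrix proteases Mmp2 and Mmp9 had log2 changes of 1.07 and 1.31. Vim, the intermediate filament vimentin, read 6571 and 4210 without LIF, against 9345 and 9705 with LIF (-0.86, adjusted p = 0.239). On array 2 there were 12 of these 19 lower in both groups, as Cdh2 was, against 31.7% of tested genes.

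**Figure D5:**
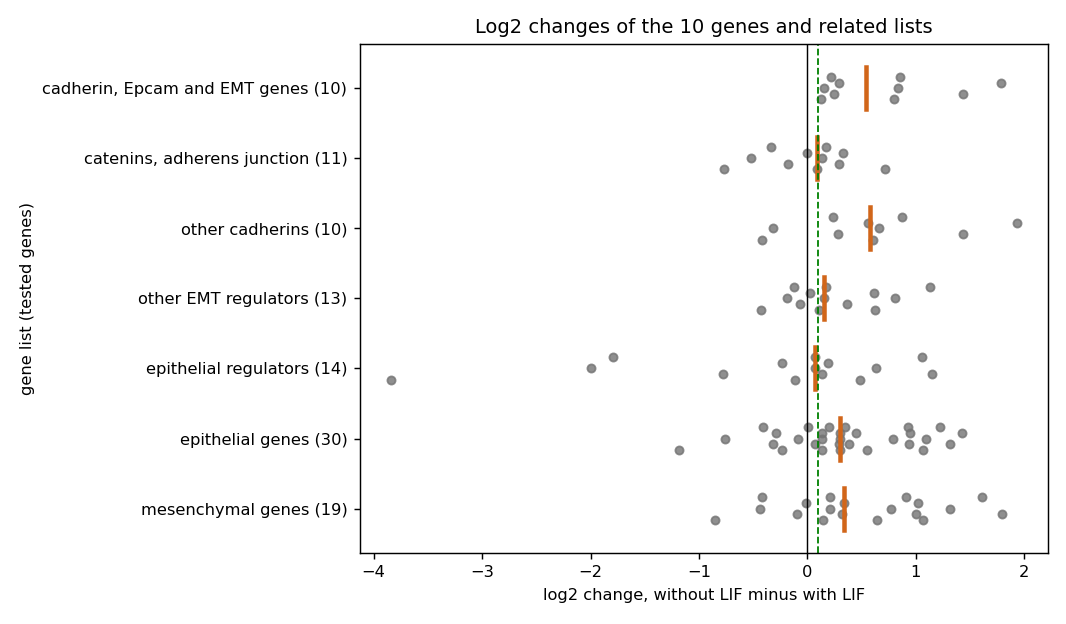
Log2 change (without LIF minus with LIF) of each tested gene of the 10 and of 6 related lists, with the number of tested genes in brackets. Vertical bars are list medians and the dashed line is the median of all tested genes, 0.09. The 10 genes have a median of 0.54, and the point at -3.84 is Klf4.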

How the data were processed

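The authors deposited MAS5 signal intensities of 45101 probe sets on 4 arrays, which the values show to be linear and the submitters' processing notes name. The MAS5 version and a genome build are not given in the sources used here. The mean without the lowest and highest 2% was 500.0 on each array, and medians were 59.6 to 95.5. The number of arrays limits the precision. The platform annotation gave 1 symbol to 34945 probe sets, several to 932 and none to 9160, and 64 were controls. The Entrez identifiers of 34741 matched RefSeq (GRCm38.p6) and changed 0 symbols. The only value at 0 was raised to 0.1 before log2. Genes were tested above the 30th percentile of mean log2 signal, 4.51 (a signal of 22.9), with limma 3.58.1 in R 4.3.3 (lmFit, eBayes with trend), a group term alone and 2 residual degrees of freedom. Tests were two-sided, with Benjamini-Hochberg adjustment over every tested gene.

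The 10 genes and the lists were chosen with earlier results of these data known. Named from other lists were genes that passed, or else up to 4 with the smallest unadjusted p, beside Socs3, Klf4, Pou5f1 and Sox2. Sox2 read 10883 and 11298 without LIF, against 14933 and 16847 with LIF. Other genes were named after their values were seen. Tested on simulated data, the fit returned the changes put in. Alternatives were other filters (none, 50th percentile), a pseudocount (14.3), quantile normalization, a common median, eBayes without trend or with robust estimation, mean or plain probe sets, the replicate number as a block, an adjusted p of 0.1, and each array left out. Figures were drawn with matplotlib 3.10.9.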

Additional observations from a re-analysis of the deposited data

How the results depend on the processing

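The 10 genes together gave 147 log2 changes under the alternatives, of which 125 kept their sign and their side of the threshold, 7 passed it and 15 changed sign. None of the 10 passed under the settings that kept all 4 arrays and had no replicate block. With the replicate number as a block 3 passed, Cdh2 (adjusted p = 0.0021), Epcam (0.026) and Esrp1 (0.0076), among 975 calls, 6.75% of tested genes. Of the 20 tested probe sets of the 10 genes 4 passed with the block, all of these 3 genes, against 1412 of all 26405 tested. Each number holds only 2 arrays and the labels name no shared culture or batch, so whether the numbers pair the samples is not known. Deviations from the group means correlated at 0.291 over genes, a single value, since the 2 arrays of a group deviate by equal and opposite amounts. The count of the 10 genes passing was 0 to 2 with an array left out, and that of 2-fold differences with no overlap 2 to 4.

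Over all tested genes 21 were called, and 0 without the trend (1589 at an unadjusted p of 0.05), 10 with quantile normalization, 12 with the mean of probe sets, 41 with the 50th percentile filter, 51 with the pseudocount, 52 with robust estimation, 131 with a common median, 140 at an adjusted p of 0.1 and 7 to 496 with an array left out. The probe set fit called 0, and 1 with quantile normalization, 2 with no filter, 2 with robust estimation, 2 at an adjusted p of 0.1, 21 with a common median and 0 to 8 with an array left out. The within-array difference of Cdh2 and Cdh1 ranged from -0.20 to 2.62 with an array left out.

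With a common median Cdh1, Cdh3, Cdh11, Ocln and Zeb1 read -0.074, -0.17, -0.045, -0.0066 and -0.14. With quantile normalization Cdh3 and Cdh11 read -0.033 and -0.011, and with the mean of probe sets Zeb1 read -0.21. Cdh1 ranged from -0.040 to 0.48 with an array left out, Cdh3 from -0.015 to 0.26, Cdh11 from -0.90 to 1.40, Zeb1 from -0.37 to 0.67 and Zeb2 from -0.26 to 1.97. The causes were not tested. List medians were recomputed under the same settings after the data had been seen. Low signals limit Snai1, Cdh11 and the dim probe sets most.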
